A study of Homo sapiens with 12 samples.

Results

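The receptor complex that senses lipopolysaccharide (LPS), together with its proximal adaptors and kinases, was followed as 9 listed genes (TLR4, LY96, CD14, TIRAP, TICAM2, MYD88, TICAM1, IRAK4 and IRAK1). The rule lists them by name, and each matched 1 of the 58735 rows of the count table. RNA-sequencing was done on THP1 cells, an established human leukemia line of monocytes with a wild-type genotype, in 4 groups of 3 libraries. THP1 cells were grown for 24 h in the upper chamber of transwell inserts, in complete endothelial cell medium, above control ECs (endothelial cells of the human umbilical vein given DMSO), above senECs (the same cells made senescent with etoposide), above EGCG-treated senECs (given etoposide and EGCG, a green tea catechin), or without ECs (mono-culture). The THP1 cells of every group, mono-culture too, were taken out and then given 100 ng/ml LPS for 2 h, so none of the 12 libraries shows the level without LPS. Replicates were numbered 1, 2 and 3 in mono-culture and control ECs, and 1, 2 and 5 in both senEC groups. Where 4 values follow each other they are in the order of mono-culture, control ECs, senECs, EGCG-treated senECs (the group order), and within a group values are in the order of the numbers. Nothing used here says that these were separate cultures, so p-values measure only the spread between these libraries, which may be technical.

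In monocytes, CD14 on the cell surface takes up LPS and hands it to the pair of TLR4 and MD-2 (the protein of LY96), and binding of LPS brings TLR4 pairs together. TIRAP then brings MYD88 to the receptor at the plasma membrane, where MYD88 gathers the kinases IRAK4 and IRAK1 and sets off NF-kB signalling. From endosomes, TICAM2 (TRAM) brings TICAM1 (TRIF) to TLR4, the arm that leads to type I interferon.

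Total counts per library ranged from 15439836 to 22092600. Levels are given in CPM, counts scaled to a library size corrected by TMM, and the level that a count of 0 still allows (3 counts) was at most 0.191 CPM in any library, for counting error only. All 9 genes passed the filter of 10 counts in total and were tested among 25873 genes with edgeR's quasi-likelihood test, with Benjamini-Hochberg adjustment over all of these genes. A gene is said to be called at an adjusted p under 0.05. Of 12 monocyte markers, 11 were at 48.4 CPM or higher in every library, while CD68 was between 0.108 and 0.857 CPM. Of 14 endothelial markers, SOX17 had no count in any library, CDH5 had at most 1 count and KDR at most 6, and EGFL7, at 17.8 to 30.4 CPM, made up most of their sum. The sum of the 14 was 21.9 to 28.2, 25.3 to 27.8, 26.1 to 34.8 and 25.7 to 29.1 CPM in the group order.

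With the group as the only term, CD14 alone of the 9 genes was called between groups by edgeR. CD14 was higher in THP1 cells co-cultured with senECs than in mono-culture, and the mean of the co-cultures was also above mono-culture. MYD88 and IRAK1 were higher with senECs and with EGCG-treated senECs in every library than in any library of mono-culture, but were not called in that fit. Such a separation held for 8.18% of all genes with senECs and 6.40% with EGCG-treated senECs. No gene of the 9 was called between any 2 of the co-cultures in that fit. With the replicate number as a further term, edgeR also called MYD88 and IRAK1 with senECs against mono-culture (adjusted p = 0.00230 and 0.0376). It then called CD14 for senECs against control ECs (adjusted p = 0.00174). TLR4 itself, LY96, TIRAP, TICAM1, TICAM2 and IRAK4 were called in no comparison between groups. The plot of levels in each library shows these values.

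**Figure D1:**
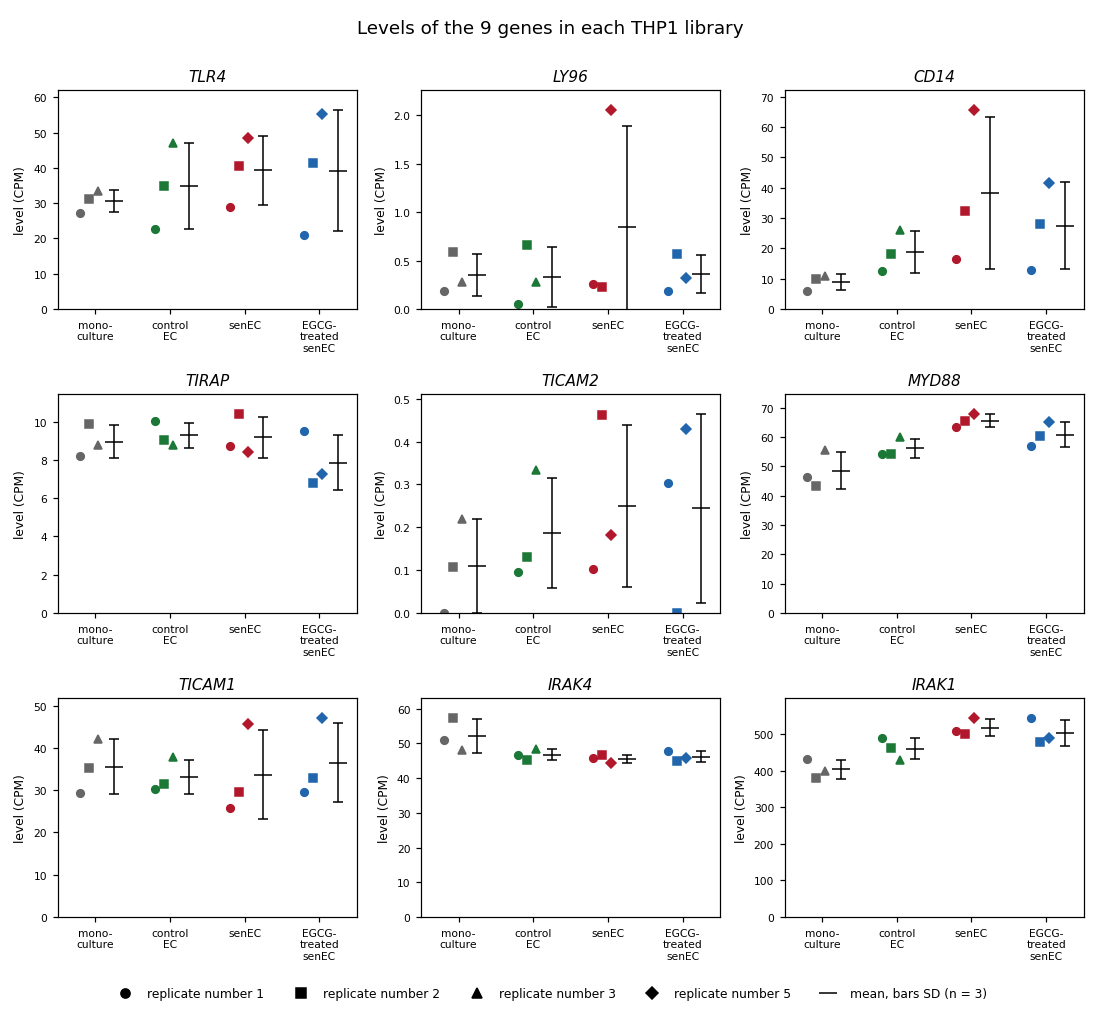
Level of each of the 9 genes (CPM, linear axes from 0) in every THP1 library by group, with the marker shape giving the replicate number and, beside the points, the group mean with its SD (n = 3). CD14 is at 12.4 CPM or higher in all 9 co-culture libraries and at 11.0 CPM or lower in the 3 libraries of mono-culture, and the libraries numbered 1 are the lowest of their group for TLR4 and CD14.

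The promoters of 7 of the 9 genes were taken from RefSeq on GRCh38.p14 as 250 bases before to 50 after the gene's start, and were searched on both strands for short motifs of factors known in monocytes. The 30-base windows printed here belong to the genes whose levels are described most closely in what follows, with the motif in capitals. PU.1, the main myeloid lineage factor, was represented by GAGGAA, which 27.9% of 35116 promoters hold and which was found once each for CD14 and MYD88 and at 4 places for TLR4, of which 1 is printed. NF-kB was represented by GGGACTTTC, held by 0.387% of promoters and found for TICAM1 only among these genes. AP-1 was represented by TGANTCA, held by 7.71% of promoters and found for CD14, TICAM2 and IRAK1. STAT factors were represented by TTCNNNGAA, held by 7.66% and found for CD14 and MYD88. The Sp1 motif GGGCGG, held by 45.0% of promoters, was found in 6 of the 7 promoters, all but that of CD14. In the windows printed, no capital letters overlap a match to another of these motifs. A match describes letters, not binding.
CD14, PU.1 motif 96 bases before the start, chr5:140633254-140633283, minus strand: ggggctggctcgGAGGAAgagaggtgggga
CD14, STAT motif 123 bases before the start, chr5:140633280-140633309, minus strand: cattgcaatatTTCCAGGAAaggaaggggg
CD14, AP-1 motif 223 bases before the start, chr5:140633381-140633410, minus strand: gcctggggcgccTGAGTCAtcaggacactg
TLR4, PU.1 motif 40 bases before the start, chr9:117704351-117704380, plus strand: gtggggcggctcGAGGAAgagaagacacca
MYD88, PU.1 motif 18 bases before the start, chr3:38138631-38138660, plus strand: ccgcaggagaaaGAGGAAgcgctggcagac
TICAM1, NF-kB motif 120 bases before the start, chr19:4831814-4831843, minus strand: ggggcgacccgGGGACTTTCccggtgctgc
The windows of CD14, TLR4 and MYD88 lie inside the genes as GENCODE annotates them, since some of their transcripts start further upstream, and that of TICAM1 lies upstream of its gene.

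CD14 (ENSG00000170458.13, chr5:140631728-140633701, minus strand) encodes the co-receptor that binds LPS. In mono-culture its counts were 95, 184 and 199 in replicates 1, 2 and 3, or 5.90, 9.90 and 11.0 CPM. With control ECs they were 259, 410 and 471, or 12.4, 18.0 and 26.2 CPM. With senECs they were 321, 558 and 1087 in replicates 1, 2 and 5, or 16.6, 32.3 and 65.7 CPM. With EGCG-treated senECs they were 210, 443 and 776, or 12.8, 28.1 and 41.6 CPM. All 9 libraries of co-cultured THP1 cells were thus above all 3 libraries of mono-culture, which held for 459 of the 25873 genes (1.77%), while the 3 co-cultures overlapped each other. The means were 8.92 ± 2.67, 18.9 ± 6.91, 38.2 ± 25.1 and 27.5 ± 14.4 CPM in the group order (SD, n = 3).

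Against mono-culture, CD14 had a log2 fold change of 2.09 with senECs (SE 0.42, 95% interval 1.21 to 2.97), a fold of 4.25 at an adjusted p of 0.0363 by edgeR. It was the 1 gene of the 9 among the 80 genes called in that comparison, 0.309% of those tested. The mean of the 3 co-cultures gave 1.59 (SE 0.37, adjusted p = 0.0492 by edgeR), a fold of 3.02, again with 1 of the 9 genes called, against 0.723% of all genes. With the group as the only term, the difference with control ECs (1.07, SE 0.42, adjusted p = 0.688 by edgeR) did not pass. Nor did that with EGCG-treated senECs (1.62, SE 0.42, adjusted p = 0.149 by edgeR). No gene of the 9 was called there, against 0.143% and 0.213% of all genes. With the replicate number as a further term, edgeR called CD14 in both (1.07, adjusted p = 2.85e-12, and 1.32, adjusted p = 7.94e-15). That fit called 1.81% and 1.64% of all genes there. These comparisons share the 3 mono-culture libraries.

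Within a replicate number, CD14 was higher in the co-culture in 7 of 7 pairs with mono-culture, by 1.82 to 3.26 times. Among libraries numbered 1 the CPM ratio to mono-culture was 2.10 for control ECs, 2.81 for senECs and 2.17 for EGCG-treated senECs. Among libraries numbered 2 it was 1.82, 3.26 and 2.84 in the same order. Mono-culture has no library numbered 5, so the highest CD14 values, those of the libraries numbered 5, have no partner there.

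In the fit with the group as the only term, the call with senECs rested on single libraries. It was lost without senEC replicate 5 (log2 fold change 1.44, adjusted p = 0.258 by edgeR), without senEC replicate 2 (adjusted p = 0.108), without mono-culture replicate 1, 2 or 3 (adjusted p of 0.161, 0.172 and 0.116), without control EC replicate 2 (0.0631) and without EGCG-treated senEC replicate 2 (0.0591). The call for the mean of the co-cultures was lost without any 1 mono-culture library (adjusted p of 0.247, 0.275 and 0.154 by edgeR), control EC replicate 2 or 3 (0.0860 and 0.0743), senEC replicate 2 (0.0733), or EGCG-treated senEC replicate 2 or 5 (0.0856 and 0.0749). For the EGCG-treated senECs the difference was called without EGCG-treated senEC replicate 1 (1.95, adjusted p = 0.0422 by edgeR) or without senEC replicate 5 (1.62, adjusted p = 0.0467). CD14 stayed higher in every co-culture than in mono-culture in all of these fits. With all 12 libraries and the replicate number as a further term, edgeR gave CD14 with senECs 1.74 (SE 0.15, adjusted p = 2.54e-26). Number 5 occurs only in the senEC groups and number 3 only in mono-culture and control ECs. That estimate thus rests directly on the libraries numbered 1 and 2. With numbers 3 and 5 joined as 1 level, although the labels do not say they are alike, edgeR gave 1.97 (SE 0.14, adjusted p = 5.22e-19). Single libraries were not left out of these fits with the number as a term.

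**Figure D2:**
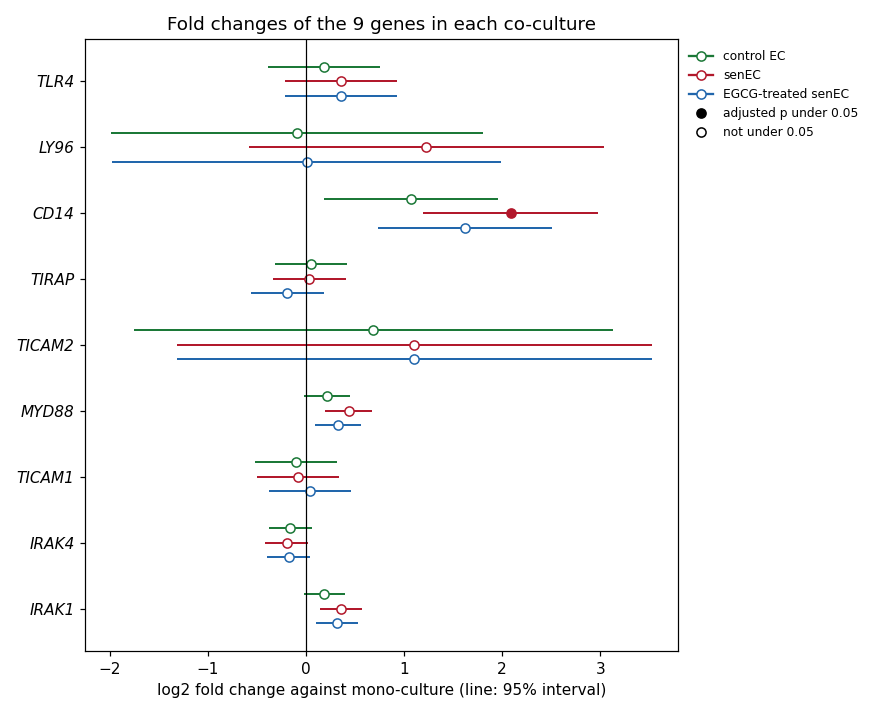
Log2 fold change of each of the 9 genes against mono-culture for each co-culture (colours), with 95% intervals from edgeR; filled points have an adjusted p under 0.05. The only filled point is CD14 with senECs at 2.09, and the intervals of LY96 and TICAM2, the genes with the fewest counts, are the widest.

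Between the co-cultures, CD14 was 2.02 times as high with senECs as with control ECs (log2 fold change 1.02, SE 0.40, 95% interval 0.18 to 1.85, adjusted p = 0.728 by edgeR). It was higher in both same-number pairs, by 1.33 times in number 1 and 1.79 times in number 2. With EGCG-treated senECs it was 0.724 times its level with untreated senECs (log2 fold change -0.47, 95% interval -1.29 to 0.36, adjusted p = 1 by edgeR). It was lower with EGCG-treated senECs in 3 of 3 same-number pairs, at ratios of 0.772, 0.872 and 0.633 in numbers 1, 2 and 5. Against control ECs the level with EGCG-treated senECs had a log2 fold change of 0.55 (95% interval -0.28 to 1.38, adjusted p = 0.979 by edgeR). None of these differences between co-cultures was called over all genes tested, although the interval for senECs against control ECs leaves out 0. With every gene that had a count in the fit, edgeR called that difference (1.02, SE 0.15, adjusted p = 1.48e-08). With the replicate number as a further term, edgeR called it too (0.66, adjusted p = 0.00174), but DESeq2 did not (0.63, adjusted p = 0.0567).

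Summed over the 12 monocyte markers, the level was 3378 to 4506, 3353 to 4409, 3588 to 5727 and 3648 to 4972 CPM in the group order, so that the groups overlapped. ITGB2 (1294 to 2170 CPM) and LAPTM5 (892 to 1587 CPM) weighed most in this sum. With senECs against mono-culture 9 markers were higher and 3 lower, with a median log2 fold change of 0.17 against -0.02 over all genes. With senECs against control ECs 10 were higher and 2 lower, with a median of 0.25 against -0.01. With the group as the only term, none of the 12 was called by edgeR in any comparison between groups. DESeq2 called 1 with senECs and 1 for the mean of the co-cultures against mono-culture. SPI1, which encodes PU.1, had a log2 fold change of 0.41 with senECs against mono-culture in that edgeR fit (SE 0.11, adjusted p = 0.135). With the replicate number as a further term, edgeR called SPI1 and LAPTM5 higher with senECs and CSF1R lower with control ECs, all against mono-culture. For the mean of the co-cultures it called 1 marker higher and 1 lower. The part of the markers in the CD14 difference was not tested. In bulk libraries, fewer cells with a transcript and less of it per cell cannot be told apart.

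TLR4 (ENSG00000136869.14, chr9:117704175-117724730, plus strand) encodes the signalling receptor. Its levels in replicates 1, 2 and 3 were 27.3, 31.1 and 33.4 CPM in mono-culture and 22.7, 34.9 and 47.2 CPM with control ECs. In replicates 1, 2 and 5 they were 29.0, 40.5 and 48.5 CPM with senECs and 21.1, 41.4 and 55.3 CPM with EGCG-treated senECs. The groups overlapped throughout, and the highest and the lowest of the 12 values both came from EGCG-treated senECs. The means were 30.6 ± 3.10, 34.9 ± 12.2, 39.3 ± 9.78 and 39.2 ± 17.2 CPM in the group order (SD, n = 3). The log2 fold change with senECs against mono-culture was 0.36 (SE 0.27, 95% interval -0.20 to 0.92, adjusted p = 0.669 by edgeR), and that between senECs and control ECs was 0.17 (95% interval -0.39 to 0.73, adjusted p = 0.909). Between EGCG-treated and untreated senECs it was 0.00066 with a 95% interval of -0.56 to 0.56.

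LY96 (ENSG00000154589.6, chr8:73991352-74029087, plus strand) encodes MD-2, the partner without which TLR4 does not bind LPS. It had few counts, with 3, 11 and 5 in mono-culture, 1, 15 and 5 with control ECs, 5, 4 and 34 with senECs, and 3, 9 and 6 with EGCG-treated senECs. Counts were no higher than 3 in 3 of the 12 libraries. The value of 34 counts, or 2.05 CPM, in senEC replicate 5 stood above the other 11 libraries, which reached at most 0.659 CPM. The means were 0.351 ± 0.213, 0.328 ± 0.309, 0.848 ± 1.05 and 0.359 ± 0.197 CPM in the group order (SD, n = 3), and the log2 fold change with senECs against mono-culture was 1.23 with a 95% interval of -0.57 to 3.02 (adjusted p = 0.647 by edgeR).

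Per length, CD14 stood in a different proportion to TLR4 in the groups. The ratio of the 2 levels in FPKM, CPM per kilobase of exon, was 2.02 ± 0.435, 3.80 ± 0.146, 6.39 ± 2.84 and 4.78 ± 0.510 in the group order (SD, n = 3). The highest ratio of mono-culture was 2.31 and the lowest of any co-culture was 3.63, with control ECs, so that the co-cultures did not overlap with mono-culture. The ratio of LY96 to TLR4 was 0.249 ± 0.146, 0.196 ± 0.192, 0.415 ± 0.444 and 0.206 ± 0.0888 in the group order and overlapped between all of them. The ratio of CD14 to TLR4 uses the CD14 levels that were already apart from mono-culture, so it is no separate support. Its size depends on the lengths used, for TLR4 13272 bases of joined exons against a median of 4740 over its coding transcripts. These ratios were not tested.

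TIRAP and TICAM2 encode the sorting adaptors that lead MYD88 and TICAM1 to the receptor. TIRAP (ENSG00000150455.13, chr11:126283065-126298845, plus strand) was at 8.20, 9.90 and 8.76 CPM in mono-culture and 10.0, 9.05 and 8.78 CPM with control ECs. It was at 8.72, 10.4 and 8.40 CPM with senECs and 9.50, 6.80 and 7.28 CPM with EGCG-treated senECs. The groups overlapped, and the log2 fold changes against mono-culture were 0.05, 0.03 and -0.19 for the other groups in their order. Antisense genes share 12.5% and 10.0% of the exon bases of TIRAP, and since the sources used here do not say whether counting used strand, a small share of its counts could belong to them.

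TICAM2 (ENSG00000243414.5, chr5:115578650-115602479, minus strand) had counts close to the limit of detection. It had 0, 2 and 4 counts in mono-culture, 2, 3 and 6 with control ECs, 2, 8 and 3 with senECs, and 5, 0 and 8 with EGCG-treated senECs. A count of 0 allows up to 0.186 CPM in mono-culture replicate 1 and 0.191 CPM in EGCG-treated senEC replicate 2. The readthrough gene TMED7-TICAM2 holds 82.2% of its exon bases. Reads could thus be split between them or counted for neither, as the counting program is not given. With the 0 to 5 counts of that gene added, the sum was 0 to 10 counts per library and the groups still overlapped. This sum cannot show reads that were counted for neither.

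MYD88 and TICAM1 encode the signalling adaptors of the 2 arms. MYD88 (ENSG00000172936.13, chr3:38138478-38143022, plus strand) was at 46.6, 43.4 and 55.6 CPM in mono-culture and 54.4, 54.4 and 60.0 CPM with control ECs. It was at 63.5, 65.4 and 67.9 CPM with senECs and 56.8, 60.4 and 65.2 CPM with EGCG-treated senECs. Every library with senECs or EGCG-treated senECs was above every library of mono-culture, and every library with senECs was also above every library with control ECs, as held for IRAK1 and for 5.31% of all genes. With senECs, 3 of the 9 genes (CD14, MYD88 and IRAK1) had all libraries above mono-culture, against 8.18% of all genes tested. With EGCG-treated senECs the same 3 genes did, against 6.40% of all genes, and with control ECs 1 did (CD14), against 6.25%.

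MYD88 averaged 48.5 ± 6.32, 56.3 ± 3.25, 65.6 ± 2.21 and 60.8 ± 4.22 CPM in the group order (SD, n = 3). The log2 fold change with senECs against mono-culture was 0.44 (SE 0.11, 95% interval 0.21 to 0.66), a fold of 1.35, which edgeR did not call (adjusted p = 0.103). DESeq2's Wald test on the same genes called it (0.43, adjusted p = 0.0124). DESeq2 called 3 of the 9 genes there (CD14, MYD88 and IRAK1), against 1.34% of all genes. MYD88 was higher in the co-culture in 7 of 7 same-number pairs with mono-culture, by 1.08 to 1.51 times. The difference between senECs and control ECs, 0.22 with a 95% interval of -0.0016 to 0.45, was not called (adjusted p = 0.728 by edgeR).

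TICAM1 (ENSG00000127666.9, chr19:4815932-4831704, minus strand) was at 29.2, 35.1 and 42.1 CPM in mono-culture and 30.3, 31.5 and 37.8 CPM with control ECs. It was at 25.8, 29.6 and 45.6 CPM with senECs and 29.5, 32.8 and 47.1 CPM with EGCG-treated senECs. The groups overlapped, with means of 35.5 ± 6.47, 33.2 ± 4.02, 33.6 ± 10.5 and 36.5 ± 9.32 CPM (SD, n = 3). The log2 fold changes against mono-culture were -0.10, -0.08 and 0.04 for the other groups in their order, and the 95% interval with senECs was -0.49 to 0.33.

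IRAK4 and IRAK1 encode the kinases that assemble on MYD88, with IRAK4 acting first and phosphorylating IRAK1. IRAK1 (ENSG00000184216.13, chrX:154010500-154019980, minus strand) was at 431, 378 and 400 CPM in mono-culture and 488, 461 and 430 CPM with control ECs. It was at 509, 499 and 544 CPM with senECs and 542, 477 and 488 CPM with EGCG-treated senECs. As for MYD88, every library with senECs or EGCG-treated senECs was above every library of mono-culture, and the highest of mono-culture lay just above the lowest with control ECs. The means were 403 ± 26.5, 460 ± 29.0, 517 ± 23.7 and 502 ± 35.1 CPM in the group order (SD, n = 3).

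With senECs against mono-culture IRAK1 had a log2 fold change of 0.36 (SE 0.10, 95% interval 0.16 to 0.56), a fold of 1.28, which edgeR did not call (adjusted p = 0.142) and DESeq2 did (adjusted p = 0.0107). With EGCG-treated senECs it was 0.32 (SE 0.10), with adjusted p = 0.270 by edgeR and 0.0381 by DESeq2, which called 1 of the 9 genes there, against 0.889% of all genes. For the mean of the co-cultures IRAK1 had an adjusted p of 0.134 by edgeR and 0.00779 by DESeq2, which called CD14, MYD88 and IRAK1 there, against 1.69% of all genes. IRAK1 was higher in the co-culture in 7 of 7 same-number pairs with mono-culture, by 1.08 to 1.32 times.

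IRAK4 (ENSG00000198001.13, chr12:43758944-43789543, plus strand) was at 51.0, 57.4 and 48.0 CPM in mono-culture and 46.7, 45.1 and 48.5 CPM with control ECs. It was at 45.7, 46.7 and 44.2 CPM with senECs and 47.9, 45.0 and 45.7 CPM with EGCG-treated senECs. Every library with senECs or EGCG-treated senECs was below every library of mono-culture, as were 8.50% and 7.72% of all genes in these comparisons, and with control ECs the groups overlapped. The mean of the co-cultures had a log2 fold change of -0.18 (SE 0.08, 95% interval -0.34 to -0.01, adjusted p = 0.446 by edgeR), and IRAK4 was lower in the co-culture in 6 of 7 same-number pairs. Per length, the ratio of IRAK1 to IRAK4 was 11.0 ± 1.46, 13.9 ± 1.20, 16.0 ± 1.17 and 15.3 ± 0.575 in the group order (SD, n = 3, not tested).

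Between the co-cultures no gene of the 9 was called, and no gene of the 25873 was (0% in the model with the group as the only term, in each of senECs against control ECs, EGCG-treated against untreated senECs, and EGCG-treated senECs against control ECs), by edgeR or by DESeq2. At an unadjusted p under 0.05 edgeR had 1709, 575 and 1177 genes in these comparisons, in that order. With every gene that had a count in the fit (34767 genes), edgeR called 114, 14 and 43 genes, CD14 among those for senECs against control ECs. For EGCG-treated against untreated senECs the log2 fold changes of the 7 genes other than LY96 and TICAM2 ranged from -0.47 for CD14 to 0.12 for TICAM1. For MYD88 that change was -0.11 (95% interval -0.33 to 0.12) and for IRAK1 it was -0.04 (95% interval -0.24 to 0.16).

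Libraries of different replicate number differed in several of the receptor genes. The labels do not say what the number stands for. With the group as a term, the libraries numbered 3 or 5 had more CD14 than those numbered 1 (log2 1.47, SE 0.12, adjusted p = 3.39e-17 by edgeR), more TLR4 (0.87, SE 0.10, adjusted p = 1.25e-10) and more TICAM1 (0.59, SE 0.09, adjusted p = 1.02e-06). These 3 of the 9 genes were called, against 10.4% of all genes, and DESeq2 called the same 3. Each of the 3 was higher in number 3 or 5 than in number 1 in 4 of 4 groups, by 1.86 to 3.97 times for CD14, 1.23 to 2.62 times for TLR4 and 1.25 to 1.77 times for TICAM1. The calls came from these same libraries, so the directions by group describe them and add no separate support. LY96 (1.85, SE 0.70, adjusted p = 0.0838 by edgeR), MYD88 (0.17, adjusted p = 0.200) and TICAM2 (adjusted p = 0.532) were also higher in 4 of 4 groups but were not called. TIRAP (-0.14), IRAK4 (-0.04) and IRAK1 (-0.09) were not called either. By contrast with CD14 and TLR4, IRAK1 was lower in number 3 or 5 in 3 of 4 groups.

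**Figure D3:**
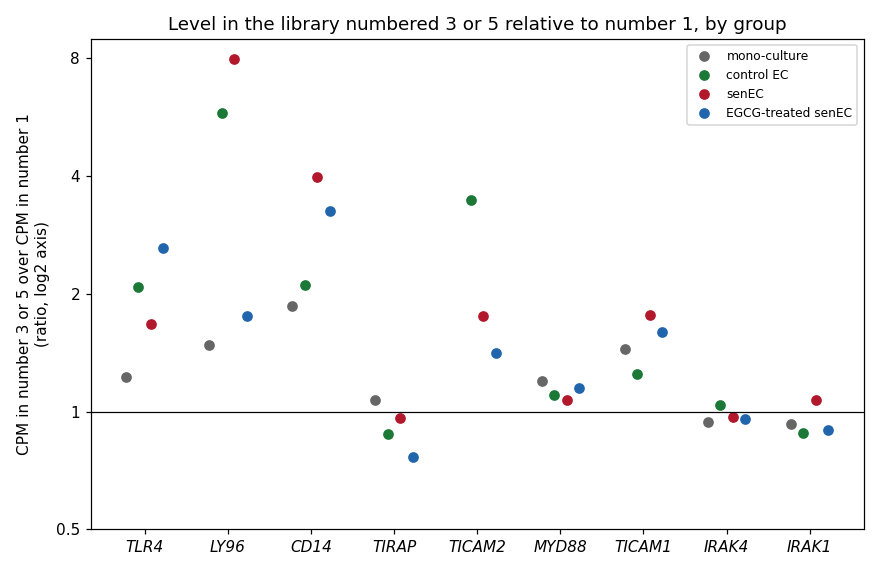
Level of each gene in the library numbered 3 or 5 divided by that in the library numbered 1 of the same group (log2 axis, 1 point per group; TICAM2 in mono-culture is left out because its number 1 library has no count). CD14, TLR4 and TICAM1 lie above 1 in all 4 groups, CD14 at 1.86 to 3.97, while IRAK4 and IRAK1 stay between 0.88 and 1.07.

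Taking deviations from the group means over the 12 libraries, log2 levels of CD14 and TLR4 had a Pearson r of 0.91, CD14 and TICAM1 0.92, and TLR4 and TICAM1 0.77. That of CD14 and MYD88 was 0.59, and that of CD14 and IRAK1 was -0.40. The 12 points share groups and replicate numbers, so these r are a description with no p. Of the 10824 genes with a mean of at least 5 CPM, those whose log2 CPM was most like that of CD14 over the 12 libraries were SQOR (r = 0.99), BASP1 (0.98), CTSB (0.98), CD82 (0.97) and S100A9 (0.97). SQOR oxidizes sulfide in mitochondria, CTSB is the lysosomal protease cathepsin B, CD82 a tetraspanin and S100A9 a calcium-binding protein abundant in myeloid cells. Most like TLR4 were GPC4, a glypican (0.97), ACSL1, an acyl-CoA synthetase (0.97), LYN, a Src family kinase (0.97), RHOH (0.96) and HIF1A, the hypoxia factor (0.96). Most like MYD88 were FOSL1, an AP-1 subunit (0.95), DENND1A (0.93), BRD2, a bromodomain protein (0.93), NRIP3 (0.92) and the protease gene FURIN (0.92).

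Ordered by level per length, the mean over the 12 libraries was 118 FPKM for IRAK1, 14.5 for MYD88, 13.0 for TICAM1, 12.4 for CD14, 8.47 for IRAK4, 2.71 for TLR4, 2.46 for TIRAP, 0.777 for LY96 and 0.0609 for TICAM2. IRAK1 was above MYD88, and IRAK4 above TLR4, in 12 of 12 libraries with no overlap of their ranges. The place of CD14 depended on the group, with a mean of 4.73 FPKM in mono-culture, below IRAK4 at 9.26 FPKM, and 20.2 FPKM with senECs, above MYD88 at 16.5 FPKM. MYD88, TICAM1, CD14 and IRAK4 overlapped as neighbours in the order (the higher was above the next in 9, 8 and 7 of 12 libraries), as did TLR4 and TIRAP (7 of 12). The exons of TLR4 join to 13272 bases while its coding transcripts have a median of 4740 bases, and with such median lengths IRAK4 moved to the second place (30.8 FPKM) and TLR4 was at 7.60 FPKM. IRAK1 stayed first and TICAM2 last under each of the 3 lengths tried.

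**Figure D4:**
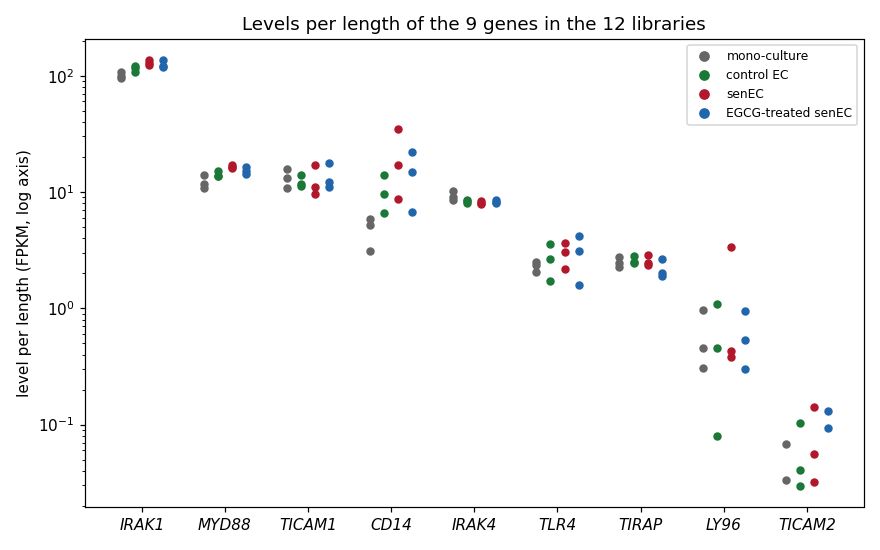
Level per length (FPKM, exon bases joined over all transcripts, log axis) of the 9 genes in each of the 12 THP1 libraries, in the order of their means and by group; the 2 TICAM2 libraries with no count are not drawn. IRAK1 is the highest of the 9 in every library, at group means of 101, 115, 129 and 126 FPKM, and within CD14 the mono-culture libraries lie lowest.

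Of the other genes of the pathway, none was called in any comparison between groups by edgeR or DESeq2 with the group as the only term. With senECs against mono-culture, 10 of 13 genes of LPS binding and receptor handling were higher and 3 lower (2 at an unadjusted p under 0.05), with a median log2 fold change of 0.06 against -0.02 over all genes. Of 28 genes downstream of the adaptors 16 were higher and 12 lower (4 unadjusted), with a median of 0.03. Of 20 genes of inhibitors of TLR4 signalling 19 were tested (IL1RL1 was not), and 8 were higher and 11 lower (1 unadjusted), with a median of -0.02. Over all genes, 2847 of 25873 had an unadjusted p under 0.05 by edgeR in this comparison. With senECs against control ECs, 13 of 13, 18 of 28 and 12 of 19 genes of these lists were higher, with medians of 0.21, 0.06 and 0.03 against -0.01 over all genes. With EGCG-treated against untreated senECs, 3 of 13, 15 of 28 and 6 of 19 were higher, with medians of -0.05, 0.01 and -0.03 against 0 over all genes.

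Between libraries numbered 3 or 5 and 1 the same lists had calls, against 10.4% of all genes. Of the 13 genes of LPS binding and receptor handling 11 were higher and 2 lower, with 7 called higher and 0 called lower. Of the 28 downstream genes 16 were higher and 12 lower, with 8 called higher and 2 called lower. Of the 19 inhibitors 10 were higher and 9 lower, with 7 called higher and 0 called lower. Examples chosen after their values were seen are IRAK2, a further IRAK kinase of the MYD88 complex (log2 1.39, adjusted p = 3.58e-19 by edgeR), and TNIP3, a binding partner of the NF-kB inhibitor A20 (2.02, adjusted p = 1.51e-22). Among the markers, all 12 monocyte genes were higher in the libraries numbered 3 or 5, with 8 called and a median log2 fold change of 0.49, against -0.03 over all genes. All 11 endothelial genes tested were also higher, with a median of 0.78 and 1 called, VWF at 0.405 to 2.20 CPM over the 12 libraries. The part of these markers in the differences of CD14, TLR4 and TICAM1 between numbers was not tested.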

How the data were processed

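For each gene the authors deposited read counts as whole numbers, not normalized, of THP1 libraries sequenced as paired ends. Per the labels' processing notes, reads were aligned with HISAT2 to hg38, and the counting program and strand setting are not given in the sources used here. All 57169 distinct symbols of the table match GENCODE release 29 (GRCh38), which gave positions and lengths. The 12 labelled columns were used, and 4 further columns with no described sample were left out of every step. Replicates of a group differed by more than sampling noise in 12 of 12 pairs (chi-square per degree of freedom of 9.23 to 33.7).

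The 25873 genes with at least 10 counts in total were tested with edgeR 4.0.16 (quasi-likelihood, TMM, group as the only term, 12 libraries in 1 model, Benjamini-Hochberg adjustment, threshold 0.05) in R 4.3.3, after testing on simulated data. Standard errors come from edgeR's F. Libraries numbered 3 or 5 and 1 were compared with the group as a further term. Log2 CPM for correlations used a pseudocount of 2. Alternatives were DESeq2 1.42.0, its size factors, other filters, a replicate block, fewer libraries, each library left out and other gene lengths. Levels were computed in Python 3.11.15 with pandas 2.3.3 and numpy 2.4.6 and drawn with matplotlib 3.10.9.

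All 9 genes are named whatever they show. Pathway genes are named where called between groups (5 at most per list and comparison), and the 5 genes most correlated with TLR4, CD14 and MYD88 are named. The 9 genes and the gene lists were chosen with earlier results of these data known.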

Additional observations from a re-analysis of the deposited data

How the results depend on the processing

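Counts of the 9 genes called moved with the settings as follows, and the cause was not tested. With DESeq2, 3 genes were called for senECs against mono-culture, 1 for EGCG-treated senECs against mono-culture and 3 for the mean of the co-cultures. With DESeq2's size factors in edgeR that mean had 0. With every gene with a count in the fit, 1 gene (CD14) was called for control ECs against mono-culture. For senECs 2 were called (CD14 and MYD88) and for EGCG-treated senECs 1, both against mono-culture, and 1 for senECs against control ECs. The shares of all genes called were 0.641%, 1.69%, 1.08% and 0.328% in this order. The standard error for CD14 was 0.15 in place of 0.42 for senECs against mono-culture. With edgeR's filterByExpr, which dropped TICAM2, senECs against mono-culture and the mean had 0 (CD14 at adjusted p = 0.0783 and 0.0951), as had senECs against mono-culture with only the 6 libraries compared (CD14 at adjusted p = 0.0793). That last fit was not run for the mean, which uses all libraries. Leaving out 1 library at a time gave 0 to 1 genes for senECs, for EGCG-treated senECs and for the mean against mono-culture, 0 for the other comparisons between groups, and 3 to 4 for the replicate numbers (LY96 was added without EGCG-treated senEC replicate 5).

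Libraries of the same number were alike to differing degrees, and the main model held no term for the number. Deviations from the group means correlated at 0.03 to 0.58 over 14 same-number pairs (14397 genes), over 0.1 in 10 of them. Over the 4 pairs of a number 3 with a number 5 they correlated at 0.37 to 0.53, over 0.1 in all 4. Over the other 36 pairs of different number they correlated at -0.56 to 0.22, over 0.1 in 4. With a replicate block, 1 gene was called for control ECs, 3 for senECs and 1 for EGCG-treated senECs against mono-culture, and 3 for the mean. For senECs against control ECs 1 was called (CD14, 0.66, adjusted p = 0.00174 by edgeR). The shares of all genes called were 1.81%, 2.74%, 1.64%, 3.18% and 0.591% in this order. With numbers 3 and 5 joined in the replicate block the counts were 1, 3, 3, 3 and 1. The shares were then 1.55%, 5.44%, 3.02%, 4.80% and 1.04%. With DESeq2 and a replicate block, chosen after seeing the data, the first 4 counts were 1, 3, 1 and 3, against 1.31%, 1.75%, 1.24% and 2.43% of all genes. CD14 was not called for senECs against control ECs in that fit (0.63, adjusted p = 0.0567 by DESeq2). In all 3 blocked fits CD14 was among the genes called against mono-culture. Over all genes, the replicate block in edgeR called 153, 13 and 34 genes for senECs against control ECs, EGCG-treated against untreated senECs and EGCG-treated senECs against control ECs, and 75, 83 and 71 in DESeq2, in place of 0. Of the pathway lists, the replicate block called TNIP3, higher against mono-culture with control ECs (0.88, adjusted p = 7.37e-07 by edgeR), senECs (0.78, 0.000395) and EGCG-treated senECs (0.78, 0.000776). Of the monocyte markers it called SPI1 (0.37, adjusted p = 0.0161) and LAPTM5 (0.33, 0.0255) higher with senECs, and CSF1R (-0.42, 0.00219) lower with control ECs, all against mono-culture.

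No called log2 fold change of the 9 genes changed its sign under any alternative. LY96 and TICAM2 had at most 34 and 8 counts per library, which limits what can be said of them, and the cause of the low counts was not tested.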
